A study of Bos indicus with 5 samples.

Results

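Transcript abundance of 109 genes that move bicarbonate, other ions and water across membranes was examined in the oviduct ampulla of Nelore (Bos indicus) cows. The genes were taken by symbol from the 24616 genes measured. They comprised the SLC4A, SLC9A, SLC12A, SLC14A and SLC26A carrier families, the aquaporins, CFTR, the carbonic anhydrases, the alpha and beta subunits of the sodium pump with the FXYD regulators, the epithelial sodium channel subunits, and the ClC, CLCA, anoctamin and bestrophin families. The symbol rule also took SLC9A3R1 and SLC9A3R2, which are scaffold proteins and not carriers.

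Whole-thickness ampulla tissue from the side of the ovary with the corpus luteum was collected from multiparous cows on day 4 after induced ovulation. All cows were pre-synchronized with a prostaglandin F2α analog and a GnRH agonist 7 days apart. On day -10 they were given a 1 g progesterone device with 2 mg of estradiol benzoate, and later prostaglandin (0.5 mg cloprostenol) when the device came out and again 6 h afterwards, then a GnRH agonist (1 µg buserelin) on day 0. In the LF/LCL cows (large follicle, large corpus luteum), the device was removed 42 h before GnRH and an extra prostaglandin dose was given on day -10. In the SF/SCL cows (small follicle, small corpus luteum) it was removed 30 h before GnRH. There were 2 LF/LCL libraries and 3 SF/SCL libraries, each from a different cow. The study had picked the sequenced cows from opposite ends of a ranking on follicle, corpus luteum and steroid measurements, and had set aside a further LF/LCL library, so the groups represent extremes and not average cows.

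The oviduct epithelium secretes the fluid in which sperm, oocyte and early embryo are carried. In secretory epithelia in general, the sodium pump sets up the sodium gradient, basolateral cotransporters use it to load chloride and bicarbonate into the cell, apical channels and exchangers release these anions, and water follows through aquaporins. Carbonic anhydrases interconvert carbon dioxide and bicarbonate, and oviduct fluid is known to be rich in bicarbonate, which activates the soluble adenylyl cyclase of sperm.

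Values are normalized reads, which are read counts divided by a size factor for each library. The 2 LF/LCL libraries held 13418278 and 16171541 reads and the 3 SF/SCL libraries 14785598, 19592174 and 14277845, so that a single read was worth between 0.777 and 1.17 normalized reads. Normalized reads are not corrected for transcript length, and levels are therefore compared between cows and not between genes. OVGP1, the oviduct-specific glycoprotein, was read at 142113 and 117179 in the LF/LCL cows and 122187, 147247 and 137422 in the SF/SCL cows. Marker genes of smooth muscle and of ciliated cells stood apart between the groups. The summed smooth muscle markers were 111640.0 and 56319 in LF/LCL, compared with 34218, 38074 and 14379.6 in SF/SCL. Their ratio of means was 2.91 of LF/LCL to SF/SCL. The log2 fold change was positive in 9 of 9 genes, and 8 had an unadjusted limma p under 0.05, against 5.64% of all genes in that direction. The summed ciliated cell markers were 54982 and 67147 in LF/LCL against 81381, 80944 and 78975 in SF/SCL, a ratio of 0.759. The fold change was negative in 9 of 9 tested genes, and 7 had an unadjusted limma p under 0.05, against 5.86% of all genes in that direction. The part of these cell type differences in the values below was not tested, and in whole tissue fewer cells of a type and less RNA per cell cannot be told apart.

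**Figure D1:**
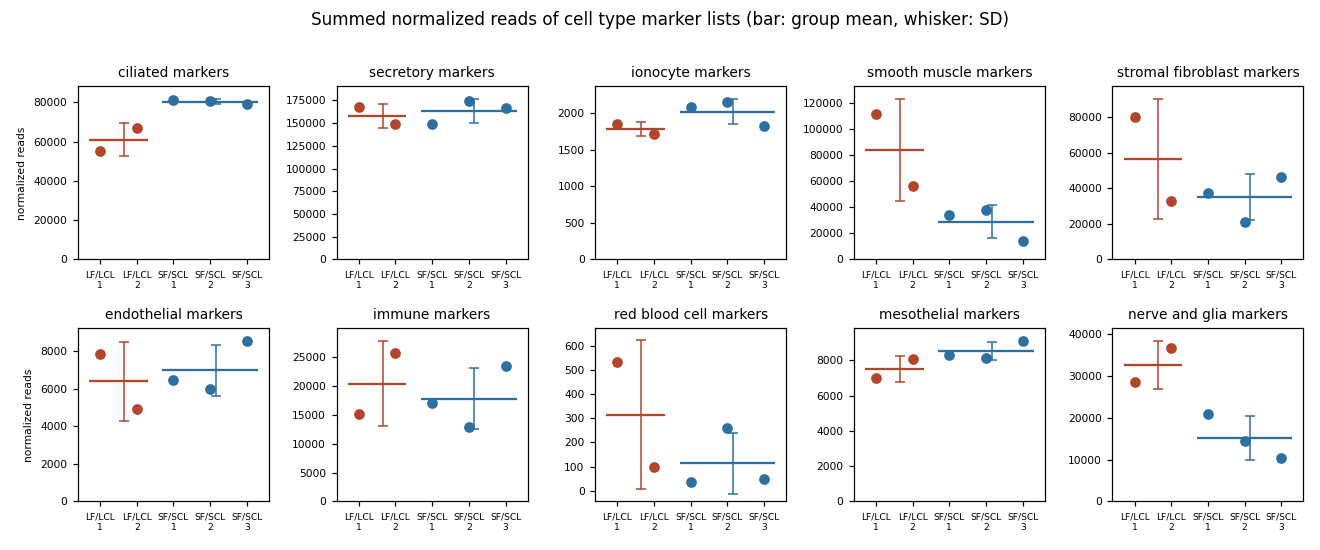
Summed normalized reads (y axis, linear) of 10 cell type marker lists in each library (x axis, LF/LCL replicates 1 and 2 in red, SF/SCL replicates 1 to 3 in blue), with the group mean as a bar and the SD as a whisker. The smooth muscle sums of LF/LCL lie above all SF/SCL sums, the ciliated sums lie below them, and the secretory sums overlap.

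No transport gene passed the test adjusted over all genes. Of the 109 genes, 82 had a mean over 5 normalized reads and were tested, and none had an adjusted p under 0.05 in the limma fit (two-sided, Benjamini-Hochberg over all 15815 genes tested), where 0% of all genes passed. Their smallest adjusted p was 0.178. By unadjusted p under 0.05, 12 of 82 (14.6%) were past the threshold, against 11.5% of all genes tested, and 10 with edgeR against 11.6%. Of the 12, 4 were higher in LF/LCL (4.88%, against 5.64% of all genes) and 8 were higher in SF/SCL (9.76%, against 5.86%). The 4 were SLC12A1, SLC9A9, CA14 and ATP1B1. The 8 were FXYD6, SLC14A1, CLCN6, SLC4A4, SLC4A9, ANO1, SLC4A10 and SLC9A3R1. The smooth muscle marker sums were higher in LF/LCL like the first set and the ciliated marker sums higher in SF/SCL like the second, and their part in these differences was not tested.

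The 2 groups did not overlap in 22 of the 82 genes (26.8%), 9 with LF/LCL higher and 13 with SF/SCL higher, against 30.1% of all genes tested. The median log2 fold change of the 82 genes, LF/LCL over SF/SCL, was 0.05, with 43 positive and 39 negative, and that of all genes was 0.01. With DESeq2 on the read counts, recovered by multiplying out the size factors, 4 of the 82 genes (4.88%) had an adjusted p under 0.05, against 2.89% of all genes. These were SLC12A1 and SLC9A9, higher in LF/LCL, and FXYD6 and SLC14A1, higher in SF/SCL. With 2 libraries against 3, an exact rank-sum test of a single gene cannot go below p = 0.2 (two-sided), and none is given.

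**Figure D2:**
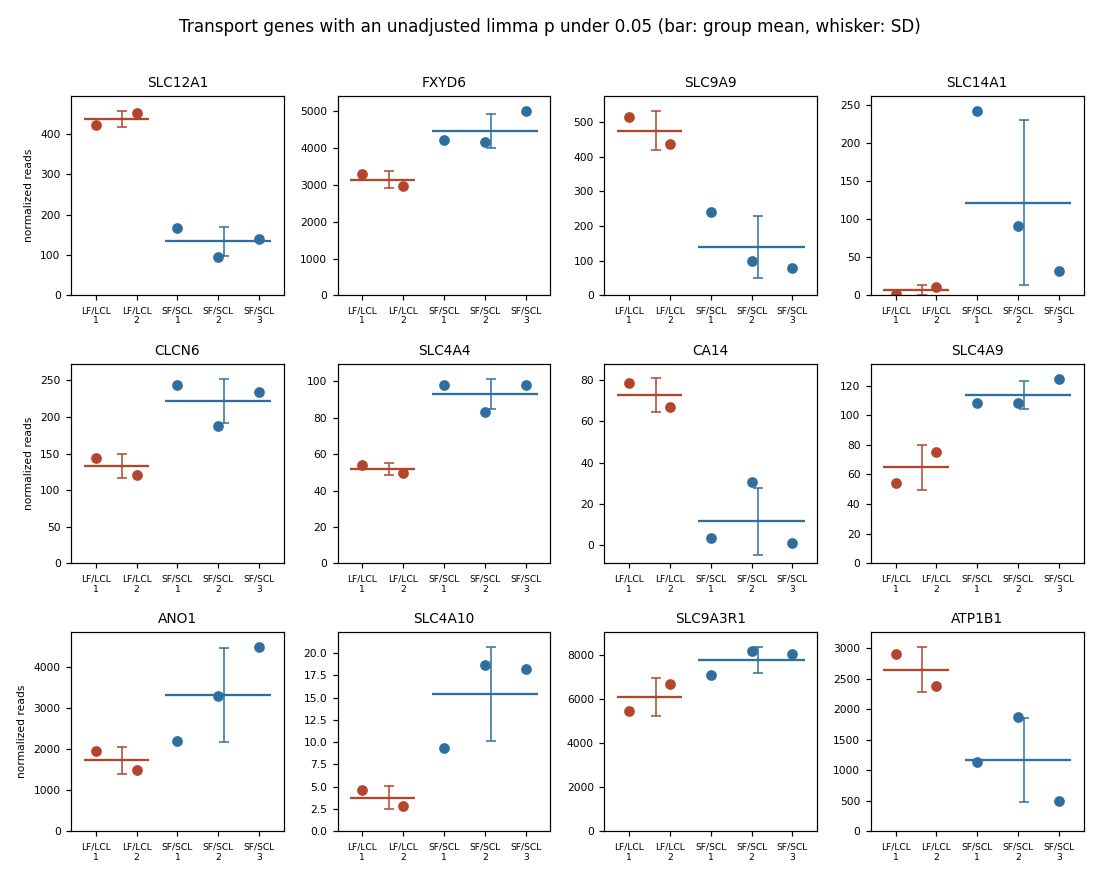
Normalized reads (y axis, linear) of the 12 transport genes with an unadjusted limma p under 0.05 in each library (x axis), with the group mean as a bar and the SD as a whisker. The LF/LCL points (red) do not overlap the SF/SCL points (blue) in any of the 12 panels, and the SF/SCL points of CA14 and SLC14A1 are the most widely spread relative to their means.

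The SLC4A family holds the bicarbonate carriers that load cells from the blood side or exchange bicarbonate for chloride. Of its 9 genes, 8 were tested, 3 had an unadjusted p under 0.05, all with SF/SCL higher (against 5.86% of all genes in that direction), and the median log2 fold change was -0.26. The median was -0.49 without LF/LCL replicate 2 and -0.44 without SF/SCL replicate 3. SLC4A4 (ENSBTAG00000002348), the electrogenic sodium-bicarbonate cotransporter of basolateral membranes, had 53.9 and 49.4 normalized reads in the LF/LCL cows and 97.7, 83.2 and 97.7 in the SF/SCL cows. Every SF/SCL cow was above both LF/LCL cows, and the log2 fold change was -0.83 ± 0.27 (SE), with an unadjusted p of 0.0219 and an adjusted p of 0.359. SLC4A9 (ENSBTAG00000021775), a further anion exchanger of the family, had 53.9 and 75.5 in LF/LCL, compared with 108, 108 and 124 in SF/SCL. The groups again did not overlap, with a log2 fold change of -0.82 ± 0.28 (SE), an unadjusted p of 0.0247 and an adjusted p of 0.365.

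SLC4A10 (ENSBTAG00000015317), a sodium-coupled bicarbonate carrier best known in brain, had few reads, with 4.69 and 2.90 normalized reads in LF/LCL against 9.36, 18.7 and 18.2 in SF/SCL. Its log2 fold change was -1.74 ± 0.62 (SE), with an unadjusted p of 0.0308 and an adjusted p of 0.384. These 3 genes were each past the unadjusted threshold in only 1 of the 5 fits that left out a library. In those fits the log2 fold change ran from -0.91 to -0.77 for SLC4A4, from -1.06 to -0.58 for SLC4A9 and from -2.04 to -1.47 for SLC4A10.

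The 2 SLC4A genes with the highest read numbers overlapped between the groups. SLC4A2, the chloride-bicarbonate exchanger of basolateral membranes, had 1973 and 2313 normalized reads in the LF/LCL cows and 2279, 2393 and 2543 in the SF/SCL cows, with a log2 fold change of -0.17 ± 0.11 (SE) and an adjusted p of 0.622. SLC4A7, an electroneutral sodium-bicarbonate cotransporter, had 1182 and 1153 in LF/LCL, compared with 1226, 982 and 1208 in SF/SCL, with a log2 fold change of 0.04 ± 0.13 (SE) and an adjusted p of 0.935. In both, the groups overlapped and the cows were close to each other, with a ratio of SD to mean over the 5 cows of 0.0911 and 0.0854. SLC4A8, SLC4A3 and SLC4A11 also overlapped, with log2 fold changes from -0.35 to 0.30.

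On the apical side of secretory epithelia, CFTR is the cAMP-regulated chloride and bicarbonate channel, and SLC26A3, SLC26A4 and SLC26A6 exchange chloride for bicarbonate. All of these had few reads in the ampulla. CFTR had 30.5 and 11.6 normalized reads in LF/LCL against 12.5, 26.4 and 5.37 in SF/SCL, 89 reads in all. The highest value belonged to an LF/LCL cow and the next in order to an SF/SCL cow, and the log2 fold change of 0.58 ± 0.79 (SE) had an adjusted p of 0.83. SLC26A6 had 71.5 and 33.9 in the LF/LCL cows and 65.5, 38.9 and 101 in the SF/SCL cows, with a log2 fold change of -0.36 ± 0.53 (SE) and an adjusted p of 0.845. SLC26A3 had 2.35 and 10.6 in LF/LCL, compared with 16.6, 6.99 and 3.22 in SF/SCL, with a log2 fold change of -0.43 ± 0.93 (SE) and an adjusted p of 0.904. In each of these genes the groups overlapped, and the sign of the fold change turned when an LF/LCL library was left out. SLC26A4, with 1.17 and 0 in LF/LCL against 1.04, 4.66 and 4.29 in SF/SCL, was below the limit for testing.

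Of the 11 SLC26A genes, 9 were tested and none had an unadjusted p under 0.05. Their median log2 fold change was -0.36, with 6 negative and 3 positive. The median was -0.13 without SF/SCL replicate 1 and -0.14 without LF/LCL replicate 2, and with edgeR or DESeq2 8 were negative and 1 positive. SLC26A11, a sulfate and chloride carrier, had 1009 and 603 normalized reads in the LF/LCL cows and 913, 1253 and 1209 in the SF/SCL cows, with a log2 fold change of -0.51 ± 0.25 (SE), an unadjusted p of 0.0904 and an adjusted p of 0.504. SLC26A2, a sulfate carrier, had 55.1 and 68.7 in LF/LCL, compared with 85.3, 52.8 and 85.9 in SF/SCL, with a log2 fold change of -0.24 ± 0.35 (SE) and an adjusted p of 0.844. Both genes overlapped between the groups. SLC26A5, which encodes prestin, the motor protein of cochlear hair cells, was the only tested SLC26A gene whose groups did not overlap, with 30.5 and 61.0 in LF/LCL against 65.5, 111 and 76.2 in SF/SCL. Its unadjusted p was 0.0754 and its adjusted p 0.48.

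Among the other chloride channels, ANO1 and CLCN6 were past the unadjusted threshold, both with SF/SCL higher. ANO1 (ENSBTAG00000009997), the calcium-activated chloride channel of secretory epithelia and smooth muscle pacemaker cells, had 1959 and 1497 normalized reads in the LF/LCL cows and 2200.0, 3293 and 4491 in the SF/SCL cows. The SF/SCL cows were far apart from each other, and the lowest of them was above both LF/LCL cows. In ANO1 the log2 fold change was -0.90 ± 0.31 (SE), with an unadjusted p of 0.0274 and an adjusted p of 0.375. Without LF/LCL replicate 2 the fold change was -0.70 (unadjusted p 0.135) and without SF/SCL replicate 2 it was -0.88 (unadjusted p 0.0724). The unadjusted p of ANO1 was 0.0538 with limma without trend and robust.

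CLCN6 (ENSBTAG00000020700), a chloride-proton exchanger of late endosomes, had 144 and 121 in LF/LCL, compared with 244, 188 and 234 in SF/SCL. There was no overlap, and the log2 fold change of -0.74 ± 0.21 (SE) had an unadjusted p of 0.0134 and an adjusted p of 0.324. Without LF/LCL replicate 2 it was -0.61, with an unadjusted p of 0.0745. The other 5 ClC genes tested overlapped between the groups. Of these, CLCN3, an endosomal exchanger, had 1718 and 1686 in LF/LCL against 1522, 1812 and 1159 in SF/SCL, with a log2 fold change of 0.21 ± 0.19 (SE) and an adjusted p of 0.732. CLCN7, the lysosomal exchanger, had 1268 and 994 in the LF/LCL cows and 871, 1115 and 1177 in the SF/SCL cows, with a log2 fold change of 0.10 ± 0.18 (SE) and an adjusted p of 0.875.

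ANO6, a calcium-activated lipid scramblase and channel, was the other tested anoctamin without overlap, with 830.3 and 614 normalized reads in LF/LCL, compared with 529, 578 and 598 in SF/SCL. The ANO6 log2 fold change of 0.33 ± 0.16 (SE) had an unadjusted p of 0.0873 and an adjusted p of 0.498. It was 0.11 without LF/LCL replicate 1 and 0.55 without LF/LCL replicate 2 (unadjusted p 0.527 and 0.0188). The remaining tested anoctamins (ANO3, ANO4, ANO5, ANO8 and ANO10) overlapped. Bestrophins and CLCA proteins were scarcely read. BEST4 had 5.86 and 3.87 in LF/LCL against 6.24, 12.4 and 2.15 in SF/SCL, with a log2 fold change of -0.22 ± 0.84 (SE) and an adjusted p of 0.95, and it was the only gene of these 2 families with enough reads for a test. BEST2 had 2.35 and 12.6 in the LF/LCL cows and 1.04, 2.33 and 1.07 in the SF/SCL cows. CLCA1, a secreted protein that acts on ANO1, had 4.69 and 4.84 in LF/LCL, compared with 1.04, 13.2 and 1.07 in SF/SCL. CLCA2 had 4.69 and 4.84 in LF/LCL against 6.24, 3.11 and 0 in SF/SCL, and the highest value of CLCA1 and the lowest of CLCA2 both belonged to SF/SCL cows.

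Carbonic anhydrases were the largest class, with 15 genes, of which 10 were tested. An unadjusted p under 0.05 was found in 1 of the 10 (10%), against 11.5% of all genes. CA14 (ENSBTAG00000021481), a membrane-bound isozyme with its active site outside the cell, had 78.6 and 66.8 normalized reads in the LF/LCL cows and 3.12, 30.3 and 1.07 in the SF/SCL cows. SF/SCL replicate 2 stood between the other SF/SCL cows and the LF/LCL cows, and the groups did not overlap. Its log2 fold change was 3.51 ± 1.16 (SE), the highest of the 82 genes, with an unadjusted p of 0.0235 and an adjusted p of 0.362. With edgeR the log2 fold change of CA14 was 2.59 and the unadjusted p 0.0571. The threshold was also missed without either LF/LCL library or SF/SCL replicate 1, where the fold change lay between 3.19 and 3.63.

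The cytosolic and membrane-bound isozymes best known from bicarbonate secretion were not past the unadjusted threshold. CA2, the fast cytosolic isozyme, had 267 and 111 in LF/LCL, compared with 191, 56.0 and 98.7 in SF/SCL. Its log2 fold change of 0.75 ± 0.61 (SE) had an adjusted p of 0.693, and the highest value belonged to LF/LCL replicate 1. Without that library it was 0.13, without LF/LCL replicate 2 it was 1.38, and without SF/SCL replicate 2 it was 0.33. CA4, anchored to the outer membrane face, had 29.3 and 31.0 in LF/LCL against 8.32, 0 and 34.3 in SF/SCL, with no read in SF/SCL replicate 2. Its log2 fold change of 2.17 ± 1.46 (SE) had an adjusted p of 0.624 and was 0.78 without SF/SCL replicate 2, 3.35 without SF/SCL replicate 3 and 1.11 with edgeR. CA12, another membrane isozyme, had 2.35 and 5.81 in the LF/LCL cows and 4.16, 3.89 and 5.37 in the SF/SCL cows, below the limit for testing.

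CA8 and CA11, related proteins without enzyme activity, carried the highest read numbers of the class. CA8 had 2005 and 1789.7 normalized reads in LF/LCL, compared with 2103, 3776 and 2276 in SF/SCL, without overlap, and its log2 fold change of -0.47 ± 0.26 (SE) had an unadjusted p of 0.124 and an adjusted p of 0.554. CA11 had 396 and 252 in LF/LCL against 463, 462 and 395 in SF/SCL, with a log2 fold change of -0.47 ± 0.22 (SE), an unadjusted p of 0.0762 and an adjusted p of 0.481. In CA11 the lowest SF/SCL value lay just below the higher LF/LCL value, so the groups overlapped, and the log2 fold change was -0.15 without LF/LCL replicate 2 and -0.80 without LF/LCL replicate 1 (unadjusted p 0.00914). Over the 10 carbonic anhydrases tested, 7 log2 fold changes were positive and 3 negative, with a median of 0.57. They were 5 and 5 without LF/LCL replicate 1 (median 0.0163) or without SF/SCL replicate 3 (median -0.0298), and the median was 1.33 without LF/LCL replicate 2.

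The SLC9A sodium-proton exchangers set cell pH and sodium entry. SLC9A9 (ENSBTAG00000031178), an exchanger of endosomes, had 516 and 436 normalized reads in the LF/LCL cows and 241, 99.5 and 78.3 in the SF/SCL cows. The lowest LF/LCL cow was above the highest SF/SCL cow, SF/SCL replicate 1. The log2 fold change was 1.93 ± 0.48 (SE), with an unadjusted p of 0.00731 and an adjusted p of 0.298 with limma, and an adjusted p of 0.0197 with DESeq2. Its fold change stayed between 1.61 and 2.41, with an unadjusted p under 0.05, when any library was left out. The other 6 tested exchangers had log2 fold changes from -0.47 to 0.44 and none was past the unadjusted threshold.

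SLC9A3R1 (ENSBTAG00000011382) encodes NHERF1, a scaffold that ties CFTR and other apical transporters to ezrin. It had 5485 and 6720.3 normalized reads in the LF/LCL cows and 7109, 8189 and 8085 in the SF/SCL cows, without overlap. The log2 fold change of -0.36 ± 0.13 (SE) had an unadjusted p of 0.0352 and an adjusted p of 0.4, and it was -0.21 without LF/LCL replicate 1 (unadjusted p 0.212). Without SF/SCL replicate 2 or 3 it was -0.32 and -0.33, also short of the unadjusted threshold, as was limma without trend and robust (unadjusted p 0.0732). SLC9A3R2, which encodes the related scaffold NHERF2, had 839.7 and 573 in LF/LCL, compared with 925, 633 and 839 in SF/SCL. Its groups overlapped, with a log2 fold change of -0.19 ± 0.23 (SE) and an adjusted p of 0.811.

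The SLC12A cotransporters carry chloride together with sodium, potassium or both. SLC12A1 (ENSBTAG00000010145), the sodium-potassium-chloride cotransporter best known from the thick ascending limb of the kidney, had 423 and 452 normalized reads in LF/LCL against 167, 96.4 and 139.5 in SF/SCL. Means were 438 ± 20.3 (SD, n = 2) and 134 ± 35.8 (SD, n = 3), so the gap between the groups was several times the spread within either. The log2 fold change was 1.73 ± 0.27 (SE), with an unadjusted p of 0.000573 and an adjusted p of 0.178 with limma, both the smallest of the 82 genes. With DESeq2 its adjusted p was 5.01e-06, and its log2 fold change stayed between 1.51 and 1.91 when any library was left out.

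SLC12A2, the sodium-potassium-chloride cotransporter that loads chloride into secretory epithelia, also had both LF/LCL cows above the SF/SCL cows, with 272 and 328 normalized reads in the LF/LCL cows and 187, 230.0 and 262 in the SF/SCL cows. Its log2 fold change of 0.41 ± 0.21 (SE) had an unadjusted p of 0.0936 and an adjusted p of 0.51. The potassium-chloride cotransporter SLC12A7 had the opposite order, with 977 and 1110.2 in LF/LCL, compared with 1256, 1221 and 1657 in SF/SCL. For SLC12A7 the log2 fold change was -0.39 ± 0.16 (SE), with an unadjusted p of 0.0538 and an adjusted p of 0.447. SLC12A4, a further potassium-chloride cotransporter, overlapped, with 1023 and 1029.9 in LF/LCL against 1201, 950.5 and 1315 in SF/SCL and an adjusted p of 0.755. The other 5 tested genes of the family had log2 fold changes from -0.65 to 0.39 and overlapped.

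SLC14A1 (ENSBTAG00000019870) encodes the urea transporter UT-B, known from red blood cells and from the endothelium of the kidney medulla. It had 2.35 and 11.6 normalized reads in the LF/LCL cows and 242, 90.9 and 32.2 in the SF/SCL cows. The SF/SCL cows differed widely from each other, yet the lowest of them was above both LF/LCL cows. For SLC14A1 the log2 fold change was -3.80 ± 0.98 (SE), the lowest of the 82 genes, with an unadjusted p of 0.00842 and an adjusted p of 0.304 with limma, and an adjusted p of 0.00272 with DESeq2. Without LF/LCL replicate 1 the fold change was -2.84, with an unadjusted p of 0.0504. Red blood cell marker sums were 531 and 96.8 in LF/LCL, compared with 34.3, 259 and 47.2 in SF/SCL. In every library but SF/SCL replicate 3, most of the sum came from 2 entries of HBA, an alpha globin, one with 224 and 24.2 in LF/LCL against 12.5, 123.6 and 7.51 in SF/SCL and the other with 280.3 and 41.6 against 9.36, 110.4 and 8.59. HBB was read in LF/LCL replicate 1 only (2.35) and ALAS2 in no library. The endothelial marker sums overlapped, at 7882 and 4925 in LF/LCL against 6463, 5983 and 8551 in SF/SCL. Log2 fold changes were positive in 5 of the 8 endothelial markers and negative in 3. KDR, an endothelial receptor among the 3, had 2080.5 and 1797 in the LF/LCL cows (unadjusted limma p 0.00312). Its SF/SCL values were 3546, 2699 and 3559.8. The part of either cell type in the SLC14A1 values was not tested. SLC14A2, the kidney urea transporter, had no read in 78245436 reads, which allows up to 0.0383 RPM (3 reads, counting error only).

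Of 11 aquaporins, 7 were tested and none had an unadjusted p under 0.05. AQP9, which passes water, glycerol and other small solutes, had 6645 and 7423 normalized reads in the LF/LCL cows and 4658, 4340.5 and 1336 in the SF/SCL cows. Both LF/LCL cows were above the 3 SF/SCL cows, and SF/SCL replicate 3 stood well below the rest. The log2 fold change was 1.23 ± 0.55 (SE), with an unadjusted p of 0.0707 and an adjusted p of 0.474, and it was 0.64 without SF/SCL replicate 3, with an unadjusted p of 0.00296 and an adjusted p of 0.351.

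The water channels AQP1, AQP4 and AQP5 shared 1 feature, a low value in SF/SCL replicate 2. AQP1, found in endothelium and in many epithelia, had 2091 and 1872 normalized reads in LF/LCL, compared with 2042, 949 and 2137 in SF/SCL. AQP4 had 2221 and 2201 in LF/LCL against 2471, 1114 and 2018 in SF/SCL. AQP5, an apical water channel of glands, had 1916 and 1313 in the LF/LCL cows and 1619, 936 and 1668 in the SF/SCL cows. The other SF/SCL cows lay within or above the range of the LF/LCL cows, except SF/SCL replicate 3 for AQP4. Log2 fold changes were 0.30 ± 0.37 for AQP1, 0.32 ± 0.33 for AQP4 and 0.22 ± 0.30 for AQP5 (SE), with adjusted p of 0.809, 0.769 and 0.833. All 7 tested aquaporins had a positive log2 fold change, with a median of 0.30, but without SF/SCL replicate 2 only 2 of 7 were positive and the median was -0.05. Stromal fibroblast marker sums were also lowest in SF/SCL replicate 2 (21071, against 32619 to 80174 in the other libraries). So were immune marker sums (12964, against 15196 to 25611), while the sums of the other marker lists were lowest in other libraries. Among the fibroblast markers, DCN and LUM were lowest in LF/LCL replicate 2. The immune sums were made up mostly of CD74, which had 10067 in SF/SCL replicate 2. Of the other immune markers, CD3E and LCP1 were lowest in SF/SCL replicate 3, CD68 in LF/LCL replicate 1 and CD14 in LF/LCL replicate 2. The part of these cell types in the aquaporin values was not tested. AQP7 and AQP8 had no read, with the same upper limit as SLC14A2.

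**Figure D3:**
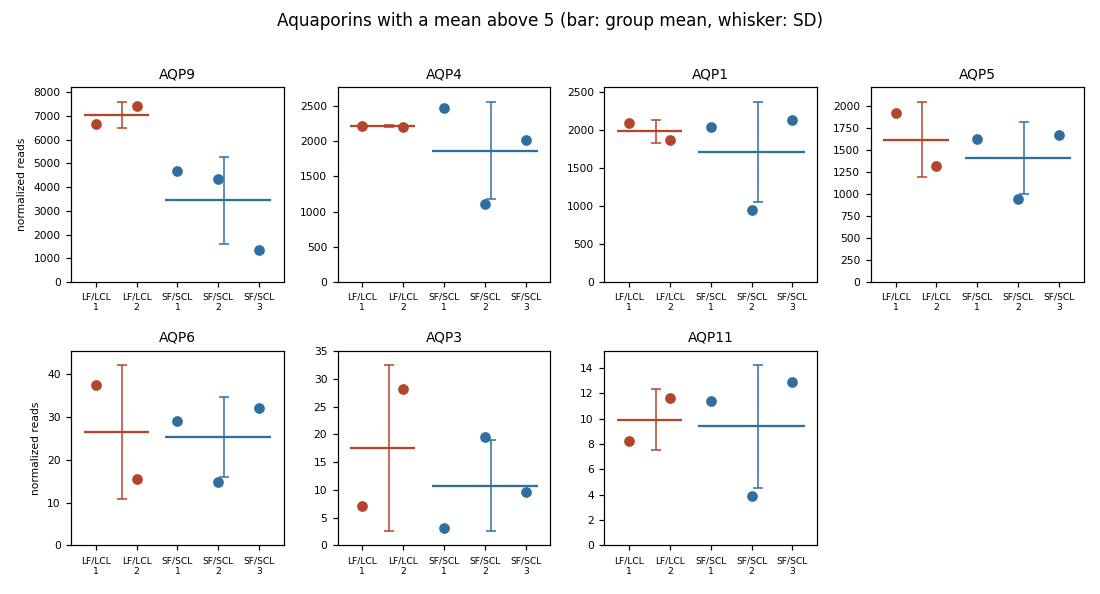
Normalized reads (y axis, linear from 0) of the 7 tested aquaporins in each library (x axis), with the group mean as a bar and the SD as a whisker. AQP9 is higher in both LF/LCL cows (red) than in the SF/SCL cows (blue), and AQP1, AQP4 and AQP5 are lowest in SF/SCL replicate 2.

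The sodium pump consists of a catalytic alpha and an accessory beta subunit, to which an FXYD protein binds. ATP1B1 (ENSBTAG00000002688), a beta subunit, had 2917 and 2389 normalized reads in LF/LCL against 1132, 1874 and 502 in SF/SCL. Its groups did not overlap, and the log2 fold change of 1.37 ± 0.53 (SE) had an unadjusted p of 0.043 and an adjusted p of 0.42.

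The lowest ATP1B1 value belonged to SF/SCL replicate 3, which also had the lowest smooth muscle and the lowest nerve and glia marker sums. That library was the lowest in 24.3% of all genes tested, and the part of these cell types in the ATP1B1 values was not tested. Without SF/SCL replicate 3 the log2 fold change of ATP1B1 was 0.86, and with edgeR its unadjusted p was 0.0573. It was 0.0735 with limma without trend and robust and 0.052 without the filter on low values. The unadjusted p was also over 0.05 without either LF/LCL library and without SF/SCL replicate 1, with fold changes between 1.22 and 1.51. In the subunit genes ATP1A4, ATP1B2 and ATP1B3 the groups overlapped, with log2 fold changes of 0.25, -0.0899 and -0.30.

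FXYD6 (ENSBTAG00000014354), a modulator of the pump, had 3309.6 and 2976 normalized reads in the LF/LCL cows and 4220.1, 4169 and 5016 in the SF/SCL cows. The groups did not overlap and the spread within each was small, with means of 3143 ± 236 (SD, n = 2) and 4469 ± 475 (SD, n = 3). For FXYD6 the log2 fold change was -0.50 ± 0.13 (SE), with an unadjusted p of 0.00654 and an adjusted p of 0.294 with limma, and an adjusted p of 0.0391 with DESeq2. It ran from -0.58 to -0.42 over the fits without a library. FXYD1, the regulator best known from heart and skeletal muscle, had 469 and 240.0 in LF/LCL, compared with 287, 326 and 455 in SF/SCL, with a log2 fold change of -0.06 ± 0.34 (SE) and an adjusted p of 0.97. FXYD3 was higher in every SF/SCL cow, with 10.6 and 14.5 in LF/LCL against 19.8, 25.6 and 45.1 in SF/SCL, and had an unadjusted p of 0.0723 and an adjusted p of 0.477.

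Epithelial sodium channels take up sodium, and with it fluid, from the lumen. The alpha subunit SCNN1A had 383 and 331 normalized reads in the LF/LCL cows and 293, 521 and 386 in the SF/SCL cows, with a log2 fold change of -0.13 ± 0.26 (SE) and an adjusted p of 0.894. The gamma subunit SCNN1G had 45.7 and 179 in LF/LCL, compared with 185, 52.8 and 66.5 in SF/SCL, with a log2 fold change of 0.06 ± 0.76 (SE) and an adjusted p of 0.987. In SCNN1G, LF/LCL replicate 2 and SF/SCL replicate 1 were far above the other 3 cows, so the cows differed more within the groups than between them. The beta subunit SCNN1B, with 0 and 8.71 in LF/LCL against 4.16, 0 and 0 in SF/SCL, was below the limit for testing.

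**Figure D4:**
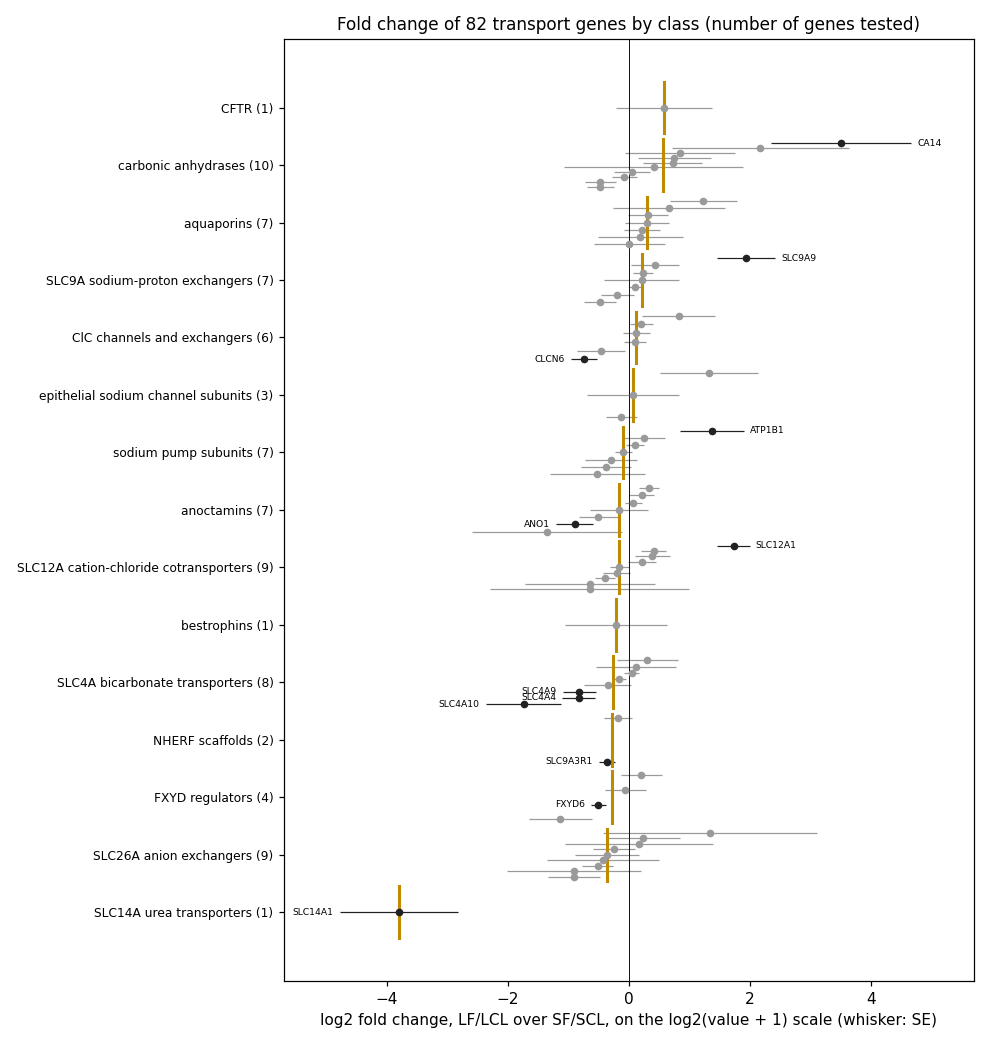
Log2 fold change (x axis, LF/LCL over SF/SCL on the log2(value + 1) scale) of the 82 tested transport genes, arranged by class (y axis, number of genes tested in brackets), with the SE as a whisker and the class median as a gold bar. Named points in black are the 12 genes with an unadjusted p under 0.05, and the classes spread to both sides of 0 except where 1 or 2 genes were tested and in the aquaporins.

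The spread between cows was wide for many of these genes. Over the 5 cows the median ratio of SD to mean was 0.319 in the 82 tested genes and 0.175 in all genes tested, whose median level was also higher (391 against 163 normalized reads). The ratio was at least 0.5 in 25 of the 82 genes and under 0.2 in 20. The lowest value belonged to LF/LCL replicate 1 in 13 genes, LF/LCL replicate 2 in 20, and SF/SCL replicates 1 to 3 in 10, 18 and 21. The highest value belonged to these libraries, in the same order, in 22, 10, 15, 18 and 17 genes, so that no library stood at an extreme in most of them.

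**Figure D5:**
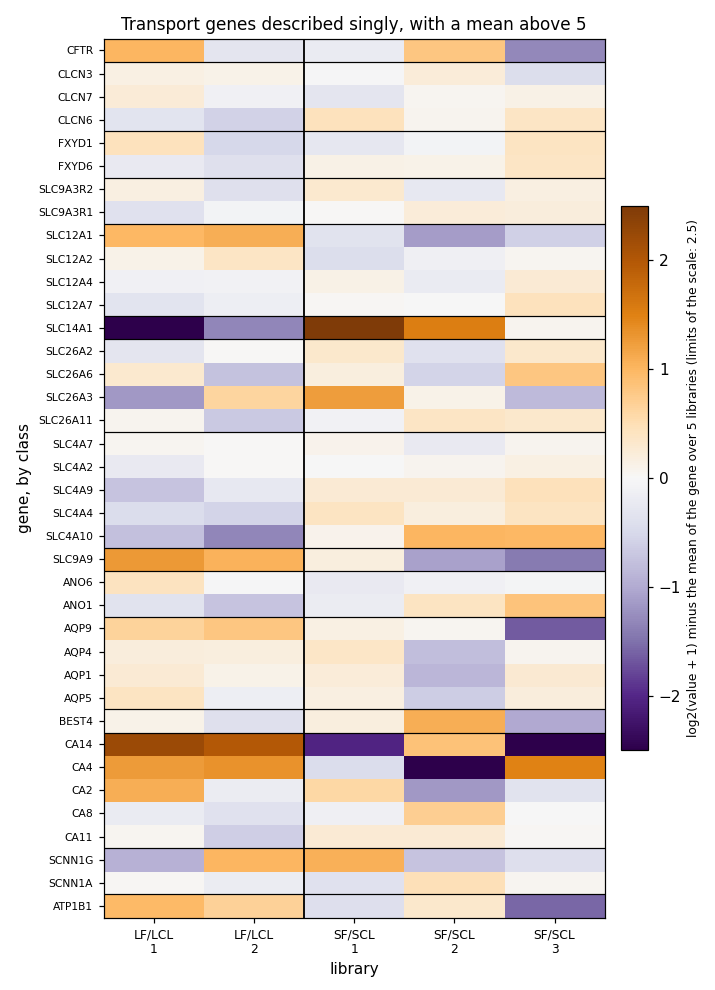
Log2(value + 1) of 38 tested transport genes described singly (rows, grouped by class and ordered by fold change within it) in each library (columns), as the difference from the mean of the gene over the 5 libraries, with the colour scale limited at 2.5 in both directions. Orange is above and purple below the mean, and the 2 LF/LCL columns differ from each other in many rows.

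Of the 109 genes, 27 were not tested because their mean was at most 5 normalized reads. The highest value among them in any library was 13.2 (CLCA1 in SF/SCL replicate 2), and 3 of them had no read (SLC14A2, AQP7 and AQP8). SLC4A5 lay just below the limit, and the lowest mean above it was 6.11. Untested genes included SLC26A9, AQP2, AQP10, FXYD2, FXYD7, CA1, CA6, SLC9A2 and SLC9A4. The groups did not overlap in 4 of the 27 untested genes (SLC26A9, ANO2, CLCN1 and BEST2), which had few reads. Among all genes tested the share without overlap was 30.1%, and the share over all untested genes was not counted.

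Genes that act with these transporters but fall outside the symbol rule were listed as well. Of 56 listed regulators and partners, 54 were matched and 46 tested, and 12 had an unadjusted p under 0.05, 7 with LF/LCL higher and 5 with SF/SCL higher, where 11.5% of all genes were past it. None had an adjusted p under 0.05 with limma, and 4 did with DESeq2, against 2.89% of all genes. Their median log2 fold change was 0.10. VIPR2, a receptor for vasoactive intestinal peptide that raises cAMP, had 2632 and 3008 normalized reads in the LF/LCL cows and 993, 1439 and 757 in the SF/SCL cows. The groups were far apart, with a log2 fold change of 1.45 ± 0.27 (SE), an unadjusted p of 0.00169 and an adjusted p of 0.222 with limma, and an adjusted p of 0.000312 with DESeq2.

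CLDN10, a tight junction protein that forms pores for ions, had 6021 and 2066 in LF/LCL, compared with 1355, 1322 and 754 in SF/SCL. The LF/LCL cows were both above the SF/SCL cows but LF/LCL replicate 1 was far above replicate 2, and the adjusted p was 0.336 with limma and 0.00546 with DESeq2. SGK1, a kinase that raises the number of epithelial sodium channels at the cell surface, had 627 and 988 in LF/LCL against 3159, 1163 and 3701 in SF/SCL. Its SF/SCL values were all above those of LF/LCL, SF/SCL replicate 2 only narrowly, with an adjusted p of 0.363 with limma and 0.0133 with DESeq2. AHCYL2, a relative of the protein IRBIT that acts on SLC4A4, had 483 and 417 in the LF/LCL cows and 619.7, 715 and 754 in the SF/SCL cows, with an adjusted p of 0.262 with limma and 0.0297 with DESeq2.

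The kinase WNK1, which controls the SLC12A cotransporters, had 4848 and 3798 normalized reads in LF/LCL, compared with 3324, 3356 and 2924 in SF/SCL, with a log2 fold change of 0.43 ± 0.14 (SE) and an adjusted p of 0.362. EZR, which encodes ezrin, the partner of NHERF1, had 23532 and 38998 in LF/LCL against 17920.1, 23805 and 15071 in SF/SCL, and its groups overlapped despite an unadjusted p of 0.0456 (adjusted p 0.422). Of the potassium channel genes, KCNJ16 had 39.9 and 37.7 in the LF/LCL cows and 2.08, 11.7 and 8.59 in the SF/SCL cows (adjusted p 0.33). KCNMA1, a channel also abundant in smooth muscle, had 437 and 207 in LF/LCL, compared with 205, 152 and 123 in SF/SCL (adjusted p 0.426). KCNE3 was higher in every SF/SCL cow, with 69.2 and 22.3 in LF/LCL against 138, 190.4 and 1169 in SF/SCL (adjusted p 0.375), and SF/SCL replicate 3 alone was several times above the other cows. The remaining genes past the unadjusted threshold were TTYH3, with 379 and 327 in the LF/LCL cows and 246, 262 and 256 in the SF/SCL cows, and, with SF/SCL higher, CLIC2 (76.2 and 97.8 against 124, 154 and 142) and LRRC8B (175 and 196 against 237, 253 and 249), the last a subunit of volume-regulated anion channels.

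Markers of the other cell types differed less evenly. Secretory cell marker sums were made up mostly of OVGP1 and overlapped, at 167186 and 148510.0 in LF/LCL against 148813, 174626 and 166292 in SF/SCL. Higher in LF/LCL at an unadjusted limma p under 0.05 were 3 of 6 genes (EPCAM, KRT7 and PAX8), against 5.64% of all genes. The fold change was positive in 4 of the 6 and negative in MSLN (-1.13) and OVGP1 (-0.07). Ionocytes are the epithelial cells in which CFTR is concentrated in the airway. Of their markers, ASCL3 had no read, BSND at most 1.17 normalized reads and ATP6V0D2 at most 4.66. FOXI1 had 16.4 and 5.81 in LF/LCL against 46.8, 25.6 and 22.5 in SF/SCL (unadjusted limma p 0.0487, adjusted p 0.43). It was the only 1 of the 3 tested markers past the unadjusted threshold, against 5.86% of all genes with SF/SCL higher. The fold change was negative in 2 of the 3 and positive in ATP6V1G3 (0.09), with 212 and 347 in LF/LCL against 194, 504 and 167 in SF/SCL. The ionocyte sums, made up mostly of ATP6V1B1, were 1847 and 1719 in the LF/LCL cows and 2076, 2157 and 1829 in the SF/SCL cows. Of the stromal fibroblast markers 0 of 8, and of the endothelial markers 1 of 8 (KDR, higher in SF/SCL), were past the unadjusted threshold. The share over all genes, in either direction, was 11.5%. Immune marker sums overlapped, at 15196 and 25611 in LF/LCL, compared with 17048, 12964 and 23421 in SF/SCL. Higher in LF/LCL at an unadjusted limma p under 0.05 were 4 of 9 genes (CD3E, IL2RG, CD52 and PTPRC), against 5.64% of all genes. The fold change was positive in 7 of the 9 and negative in CD68 (-0.70) and CD14 (-0.46). Mesothelial sums, made up mostly of WT1, were 6993 and 8052 in LF/LCL against 8315, 8128 and 9097 in SF/SCL. Past the unadjusted threshold was 1 of 4 tested genes, UPK1B, with SF/SCL higher, against 5.86% of all genes. The fold change was negative in 3 of the 4 and positive in 1, and in WT1 it was -0.03. Nerve and glia sums were 28550.0 and 36686 in the LF/LCL cows and 20851, 14459.9 and 10413 in the SF/SCL cows, without overlap and made up almost wholly of S100B. Of their 6 tested genes, 2 were past the unadjusted threshold with LF/LCL higher, against 5.64% of all genes. They were S100B (unadjusted limma p 0.00885) and PRPH, an intermediate filament of neurons (121 and 65.8 against 39.5, 44.3 and 21.5, unadjusted limma p 0.0257). The glial marker SOX10 was at or below 23.6.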

How the data were processed

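RNA of 5 ampulla libraries was sequenced as paired reads. Per the study's methods and the submitters' processing notes, the authors called bases with CASAVA 1.8.2, trimmed with seqyClean, aligned with TopHat2 2.0.8 and Bowtie2 2.1.0 to the masked UMD 3.1 assembly, sorted with SAMtools 0.1.18, counted unique reads per Ensembl gene with HTSeq 0.5.4p2 and normalized with DESeq 1.12.1. Whether counting used strand is not given in the sources used here. The unit deposited by the authors is a normalized signal, the count divided by a size factor per library. Dividing by the value of 1 read gave whole reads for 100% of nonzero values (within 0.05 of a read). Depth was 13418278 to 19592174 reads.

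Symbols were read from the row names, and 4645 of 24616 genes carry none and were not matched. The test was limma 3.58.1 (lmFit, eBayes with trend and robust) on log2(value + 1) over the 15815 genes with a mean over 5, two-sided, with Benjamini-Hochberg adjustment at 0.05 and no covariate. Fold changes are differences of mean log2(value + 1). The added 1 understates ratios of low values, but a low library weighs more in a mean of logs than in a mean of reads, so a low gene can show a larger or a smaller change than with edgeR. A fitted p sets the difference between the groups against the spread between these cows, which the fit moderates with that of all genes tested. Alternatives were edgeR 4.0.16 (quasi-likelihood, TMM) and DESeq2 1.42.0 on the recovered reads, limma without trend, TMM scaling, pseudocounts of 0.5 and 5, other filters and leaving out each library. Scripts were tested on simulated data.

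The genes, the list of partners and the marker lists were chosen with earlier results of these data known. Named are genes with an unadjusted p under 0.05, the 2 with most reads in each class, 18 fixed transport genes and the 5 with the highest ratio of SD to mean among those with a mean of at least 50, leaving out some that are not reported here. SLC26A5, FXYD3, SCNN1B and others given with values beyond this rule were chosen after their values were seen. Reads of near-identical or overlapping genes are uncertain. No gene positions or sequences were used here.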

Additional observations from a re-analysis of the deposited data

How the results depend on the processing

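The number of transport genes with an adjusted p under 0.05 was 0 in the limma fit and in 12 of its 13 alternatives, among them edgeR, and 4 with DESeq2. With an unadjusted p under 0.05 there were 12 (14.6%, against 11.5% of all genes), and from 9 to 14 over the alternatives that kept both LF/LCL libraries. Of these alternatives, the share over all genes was counted with edgeR only. Their median log2 fold change of 0.05 lay between 0.02 and 0.06 over the alternatives that kept all libraries, and between -0.0765 and 0.0755 over those that left out a library, the lowest without LF/LCL replicate 1. The 22 genes whose groups did not overlap became 28 to 46 with a library left out, as fewer cows have to be separated, and 22 with TMM scaling and 24 with RPM, settings chosen after seeing the data. The share without overlap over all genes, 30.1% in the main setting, was not counted under these settings, so the rise is not read as a result about the transport genes. SLC14A1 was not tested where the mean had to exceed the SD. Of the 38 named and tested genes, 25 kept the sign of their fold change under every alternative. The other 13 turned only when a library was left out, and the cause was not tested. Over these fits the log2 fold change ran from -0.0782 to 0.51 for AQP1, -0.0142 to 0.56 for AQP4, -0.0527 to 0.49 for AQP5, -0.77 to 0.0267 for BEST4, -0.0763 to 1.24 for CFTR, -0.0732 to 0.28 for CLCN7, -0.54 to 0.42 for FXYD1, -0.33 to 0.0820 for SCNN1A, -0.91 to 1.04 for SCNN1G, -1.33 to 0.47 for SLC26A3, -0.89 to 0.17 for SLC26A6, -0.0601 to 0.10 for SLC4A7 and -0.46 to 0.0896 for SLC9A3R2. Of the 26 named genes not past the unadjusted threshold, 13 thus turned, 12 kept their sign but moved by over 1.5 times in a fit without a library, and 6 (SLC12A7, SLC26A11, ANO6, AQP9, CA11 and CA4) were past that threshold in such a fit. With an LF/LCL library left out, the lone library of that group is assumed to vary like the others. No paired analysis was made, because each library came from a different cow and the groups share none.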
